A study of Mus musculus with 167 samples.

Results

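The UDP-glucuronosyltransferases measured here are Ugt2b1, Ugt2b34, Ugt2b35, Ugt2b36, Ugt2b38, Ugt2a3, Ugt3a1 and Ugt3a2. They are described together with Ugdh, the enzyme that makes the cofactor of the Ugt2 enzymes. The members were named genes, chosen with earlier results of these data known, as were the lists of other genes used below. Counts of them called are set beside the share of all tested genes as a description, not as a test of the lists. Each member was read from the probe set annotated to that gene alone. Where a gene had several, the one with the highest mean over all arrays was taken. These 9 genes are 9 of 18193 genes with such a probe set. All 9 passed the filter on dim genes, which kept 12622 genes and set aside 5571. Ugt2b34 and Ugt3a1 had 2 probe sets each and the others had 1, which makes 11 probe sets in all.

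Livers came from male C57BL/6 mice of 3 genotypes, which were wild type, a knockout of the nuclear receptors CAR and PXR, and mice humanized for both receptors. Per the labels, the animals were 9 to 11 weeks old at the start and received phenobarbital at 0.05% (weight per volume) in the drinking water or served as controls. Sampling times were day 1, day 7, day 14, day 28 and day 91 under the drug, plus day 119, which followed 4 weeks of recovery. That gives 36 groups of genotype, treatment and day, with 3 to 5 livers each and 1 array per liver. The treatment text of the labels also describes a dose study with lower concentrations and younger mice, and the values given here are those of the time course and of the age label that every sample carries. The labels number the animals separately, so the spread within a group is between animals. Nothing on the promoters that drive the human receptors in the humanized mice was used here.

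UDP-glucuronosyltransferases are membrane enzymes of the endoplasmic reticulum that attach glucuronic acid to drugs, steroids, bilirubin and bile acids, so that the products can leave the liver in bile or blood. Ugdh oxidises UDP-glucose to UDP-glucuronic acid, the donor of that glucuronic acid. Enzymes of the Ugt2 family take UDP-glucuronic acid, whereas the Ugt3a enzymes are known to use other UDP-sugars. CAR (gene Nr1i3) and PXR (gene Nr1i2) are nuclear receptors that respond to foreign compounds, and phenobarbital is a standard activator of CAR in rodent liver.

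The Ugt2 members lie side by side on chromosome 5, where the RefSeq gene order runs Ugt2b34, Ugt2b1, Ugt2b35, Ugt2b36, Ugt2b5, Ugt2b37, Ugt2a3 and Ugt2b38. Ugt3a1 and Ugt3a2 are neighbours on chromosome 15, and Ugdh lies elsewhere on chromosome 5. RefSeq promoter windows (GRCm38.p6, 250 bases before to 50 after the start of the gene) were found for 8 of the 9 members, and Ugt3a2 had none. Shown here are Ugdh, Ugt2b34, Ugt2b35 and Ugt2b36, which rose under phenobarbital, and Ugt2b38, a neighbour that did not. Each is written 5′ to 3′ on the strand of its gene. Capitals mark exact matches, on either strand, to AGGTCA or AGTTCA (short motifs that nuclear receptors bind, usually in pairs) and GCGTG (the core of the xenobiotic response element, CACGC where it lies on the other strand).
Ugdh, chr5:65435793-65436092, minus strand: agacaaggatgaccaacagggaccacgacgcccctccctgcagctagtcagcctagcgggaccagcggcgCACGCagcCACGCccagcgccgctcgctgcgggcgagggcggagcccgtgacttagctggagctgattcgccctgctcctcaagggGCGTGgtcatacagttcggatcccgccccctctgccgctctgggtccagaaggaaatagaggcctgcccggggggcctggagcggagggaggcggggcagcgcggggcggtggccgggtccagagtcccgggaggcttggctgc
Ugt2b34, chr5:86906888-86907187, minus strand: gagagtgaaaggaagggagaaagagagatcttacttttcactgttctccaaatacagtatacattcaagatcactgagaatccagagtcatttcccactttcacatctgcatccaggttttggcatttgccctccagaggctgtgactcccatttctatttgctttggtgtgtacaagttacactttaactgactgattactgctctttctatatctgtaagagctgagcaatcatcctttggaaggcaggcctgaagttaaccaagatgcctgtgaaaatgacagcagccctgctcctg
Ugt2b35, chr5:87000610-87000909, plus strand: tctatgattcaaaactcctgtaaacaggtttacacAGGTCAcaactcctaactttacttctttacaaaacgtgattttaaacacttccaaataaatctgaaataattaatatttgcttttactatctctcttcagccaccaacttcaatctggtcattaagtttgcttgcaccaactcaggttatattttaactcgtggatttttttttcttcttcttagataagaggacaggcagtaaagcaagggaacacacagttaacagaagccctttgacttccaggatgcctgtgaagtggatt
Ugt2b36, chr5:87092506-87092805, minus strand: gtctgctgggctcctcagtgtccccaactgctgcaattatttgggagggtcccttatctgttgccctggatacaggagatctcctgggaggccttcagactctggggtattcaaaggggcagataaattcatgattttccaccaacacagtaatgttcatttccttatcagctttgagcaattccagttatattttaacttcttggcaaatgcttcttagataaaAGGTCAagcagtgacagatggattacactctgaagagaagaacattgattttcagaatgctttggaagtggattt
Ugt2b38, chr5:87424154-87424453, minus strand: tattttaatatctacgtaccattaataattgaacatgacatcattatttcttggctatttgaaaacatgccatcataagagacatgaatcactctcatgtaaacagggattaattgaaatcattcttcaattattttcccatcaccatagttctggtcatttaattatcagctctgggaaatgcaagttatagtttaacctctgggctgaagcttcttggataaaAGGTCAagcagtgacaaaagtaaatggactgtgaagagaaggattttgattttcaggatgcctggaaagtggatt

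Ugt2b35 held AGGTCA with its first base at -215 from the start of the gene. Ugt2b36 and Ugt2b38 held it at the same place, -25, and these windows were 63.5% identical in a global alignment, the most alike of any member pair. The window of Ugt2b35 was 61.5% identical to that of Ugt2b38 and 58.3% to that of Ugt2b36. Ugt2b34, which had the largest difference of the members in wild-type liver, held none of the motifs searched. Ugdh had a GC content of 71% and 3 matches to GCGTG, at -180, -172 and -94, whereas the GC content of the other windows shown ran from 34% to 43.3%. Among the windows not shown, Ugt2b1 held AGTTCA at 42 after the start, and the short HNF1 motif GTTAAT occurred in Ugt2a3 and Ugt3a1. A direct repeat of the receptor motif with 4 bases between, whose copies can overlap AGGTCA or AGTTCA matches, was found in none of the 8. Over 32851 RefSeq promoter windows of the same length, 16.3% held AGGTCA, 14% AGTTCA, 7.1% GTTAAT, 32.4% GCGTG and 0.125% the repeat. Matches of the short motifs are therefore common.

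The deposited values are log2 expression levels that ran from 2.11 to 15.07, and the array medians lay between 5.146 and 5.231. All 11 member probe sets were above the array median on every array. Nr1i3 and Nr1i2 followed the genotype labels, since the lowest wild-type values were 7.74 and 6.91 and the highest values in the other genotypes were 5.46 and 4.19. The probe sets for these genes read the mouse transcripts, so they do not show the human receptors. Of 13861 pairs of arrays, 2 were far more alike than the rest. Animals 6026 and 6030, both humanized livers of the treated recovery group, had an SD of the differences between their arrays of 0.06128 over 2706 bright genes and were counted as 1 sample. Animals 4019 and 4024, treated knockout livers of days 28 and 91, had an SD of 0.05599 and were kept as labelled. The next pair had 0.1221. Hepatocyte markers were near the top of the scale, with a mean over 4 genes of 14.27 to 14.55. The mean of 7 pancreas acinar markers was above 7 in 26 of 166 samples and reached 12.58, although the median of each genotype and treatment lay between 5.01 and 5.12. Of the 26, 8 were wild-type controls and 8 treated wild-type livers. The knockout held 4 controls and 3 treated livers, and humanized mice 1 control and 2 treated livers. By limma over the dosing days, 0 of the 7 markers were called under phenobarbital in any genotype. Their median differences were -0.37 in wild type, 0.14 in the knockout and 0.40 in humanized mice. These markers vary widely between livers, so the lack of a call does not show that they were balanced. Counts below are also given without these samples where that changes them. The smallest group then held 2 livers, so such fits are also less precise. Markers of hepatic stellate cells fell under phenobarbital for 4 of 5 genes in wild type and 3 of 5 in humanized mice, and their mean ran from 8.65 to 9.17 in wild-type controls and from 8.51 to 9.09 in treated livers. Of 4 hepatocyte markers, 3 fell in wild type and 2 in humanized mice, with median differences of -0.03 and -0.01. Of all tested genes, 19.7% were called lower in wild type and 17.5% in humanized mice. In the knockout, 0 stellate and 0 hepatocyte markers were called lower, against 11.0% of all tested genes. The part of these shifts in the results was not tested. In whole liver, fewer cells of a type and less RNA per cell cannot be told apart.

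Array levels depend on the probe as well as the transcript, so levels are compared here only within a gene. The spread between livers of the same group set Ugt2b38 apart. Its SD within groups was 0.655, larger than that of 99.4% of the tested genes, whereas Ugt2b36 had an SD of 0.044, which exceeded that of only 0.214% of them. The median over all tested genes was 0.131. Over all arrays Ugt2b36 ranged from 13.35 to 13.75 and Ugt2b38 from 5.62 to 11.03. A difference of a given size is therefore far harder to show for Ugt2b38 than for any other member. Ugt2b genes are close paralogs, and how far probes of one read the transcripts of another was not tested. Ugt2b36 and Ugt2b1, with means of 13.56 and 13.45, lay near the top of a scale that ended at 15.07. Whether differences and spread are compressed toward the top of the scale was not tested for any member.

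In wild-type liver, phenobarbital raised Ugdh and 4 of the 5 Ugt2b genes. The comparison asks whether the drug changes the glucuronidation genes in mice with their own receptors, over the mean of the 5 dosing days. Ugt2b34, Ugt2b35, Ugdh, Ugt2b36 and Ugt2b1 passed the test as higher, which is 5 of 9 members against 11.8% of all tested genes. Ugt3a2 passed as lower, 1 of 9 against 19.7%, a share not above that of all tested genes. That call was lost when any of 4 animals was left out. The median difference of the 9 members was 0.13, against -0.01 for all tested genes. Differences are phenobarbital minus control in log2 units, from a limma fit over all groups, and a gene is called at a Benjamini-Hochberg adjusted p under 0.05 over all tested genes. Without the 26 samples high in acinar markers, the count of members called in wild type was 8. That fit called 3024 of 12622 tested genes, 1191 higher and 1833 lower. Ugt2b38 at -0.65 (adjusted p = 0.0143) and Ugt2a3 at -0.08 (adjusted p = 0.0457) joined those that fell.

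**Figure D1:**
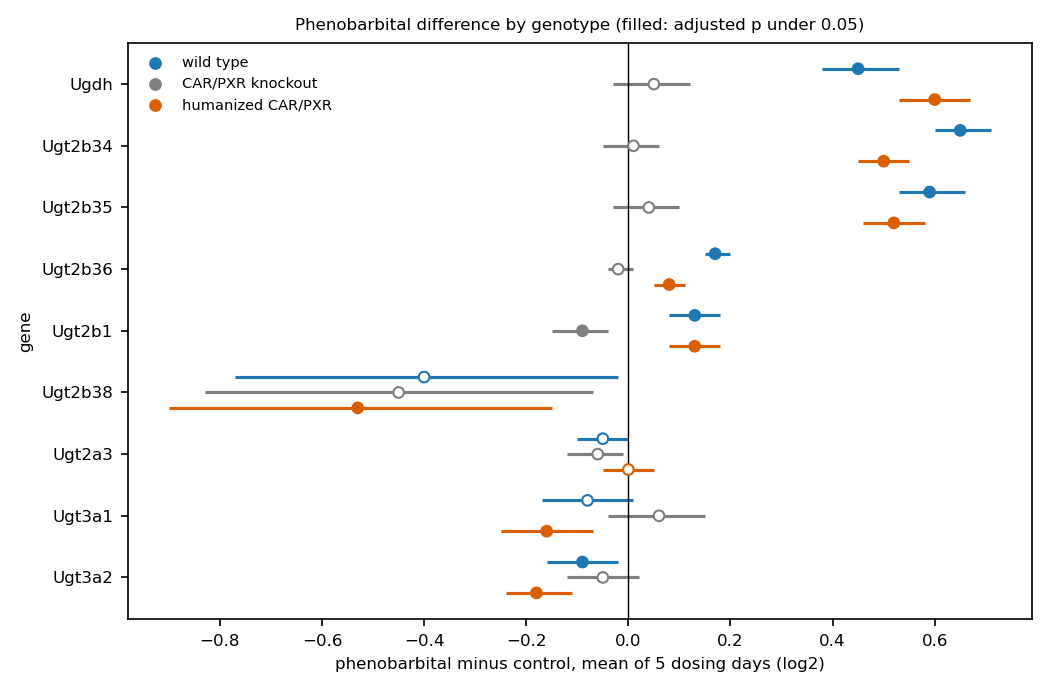
Phenobarbital minus control in log2 units (x axis), averaged over the 5 dosing days, for each gene (y axis) in wild-type, CAR/PXR knockout and humanized mice, with bars for the 95% interval and filled points where the adjusted p was under 0.05. Ugdh, Ugt2b34 and Ugt2b35 lie between 0.45 and 0.65 in wild type and humanized mice and between 0.01 and 0.05 in the knockout, and Ugt2b38 has the widest intervals.

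Ugdh, which supplies the sugar donor, had a mean level of 11.63 ± 0.15 (SD, n = 22) in wild-type controls of the dosing days and 12.09 ± 0.15 (SD, n = 24) under phenobarbital. The difference was 0.45 (SE 0.0375, fold 1.37, adjusted p = 8.44e-21). On day 1 the control animals read 11.64, 11.37, 11.46, 11.68 and 11.49, and the treated animals 11.91, 12.06, 11.98, 12.31 and 12.17. Every treated liver was above every control on day 1, and this also held on days 7, 14 and 91. On day 28 the ranges overlapped, since 1 control animal read 11.97 while the treated livers ran from 11.83 to 12.11. In humanized mice Ugdh had a mean of 11.89 ± 0.14 (SD, n = 24) in controls and 12.49 ± 0.11 (SD, n = 23) with the drug, a difference of 0.60 (SE 0.0371, fold 1.51, adjusted p = 1.47e-30). There the highest control of any dosing day was 12.19 and the lowest treated liver 12.21, so no treated liver overlapped any control of the dosing days. The humanized controls of day 119 reached 12.23.

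Ugt2b34 showed the clearest separation in wild-type liver. The 22 control livers of the dosing days ran from 12.53 to 12.87 with a median of 12.68, and the 24 treated livers from 13.09 to 13.62 with a median of 13.30. No treated liver overlapped any control of any dosing day. The difference was 0.65 (SE 0.028, fold 1.57, adjusted p = 3.4e-46). On day 1 the controls read 12.76, 12.61, 12.63, 12.80 and 12.75 and the treated animals 13.26, 13.29, 13.23, 13.40 and 13.46. All 5 treated livers were above all 5 controls, by 0.62 on average. In humanized mice the 24 controls ran from 12.66 to 13.06 and the 23 treated livers from 13.20 to 13.56, again without overlap, with a difference of 0.50 (SE 0.0276, fold 1.41, adjusted p = 5.1e-35). The other probe set of Ugt2b34 gave 0.77 in wild type and 0.52 in humanized mice.

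Ugt2b35 behaved much like Ugt2b34. In wild type the controls ran from 12.04 to 12.53 (median 12.28, n = 22) and the treated livers from 12.59 to 13.23 (median 12.85, n = 24), and the difference was 0.59 (SE 0.0327, fold 1.51, adjusted p = 4.32e-35). In humanized mice the controls ran from 12.42 to 12.77 (median 12.58, n = 24) and the treated livers from 12.85 to 13.31 (median 13.17, n = 23), a difference of 0.52 (SE 0.0323, fold 1.43, adjusted p = 2.01e-30). In neither genotype did a treated liver of any dosing day overlap a control. On day 1 the wild-type controls read 12.53, 12.43, 12.20, 12.42 and 12.42 and the treated animals 12.86, 12.70, 12.80, 12.85 and 12.89.

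Ugt2b36 rose by a small amount that was nonetheless large beside its spread. The wild-type mean was 13.50 ± 0.05 (SD, n = 22) in controls and 13.67 ± 0.05 (SD, n = 24) under phenobarbital, a difference of 0.17 (SE 0.0143, fold 1.13, adjusted p = 3.98e-21). On day 7 the controls read 13.44, 13.48, 13.50 and 13.49 and the treated animals 13.73, 13.66, 13.69 and 13.73. In wild type the treated livers were above every control on each of the 5 dosing days. In humanized mice the difference was 0.08 (SE 0.0142, fold 1.06, adjusted p = 9.12e-07), and the groups did not overlap on days 28 and 91.

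Ugt2b1 also rose slightly, by 0.13 in wild type (SE 0.0256, fold 1.10, adjusted p = 1.12e-05) and by 0.13 in humanized mice (SE 0.0253, fold 1.09, adjusted p = 1.45e-05). Its wild-type means were 13.44 ± 0.13 (SD, n = 22) and 13.57 ± 0.12 (SD, n = 24), and its humanized means 13.42 ± 0.09 (SD, n = 24) and 13.56 ± 0.08 (SD, n = 23). Treated livers lay above every control only on day 7, in both genotypes, with 13.35 to 13.60 against 13.61 to 13.73 in wild type. Without the 26 samples high in acinar markers, the wild-type difference was 0.08 (adjusted p = 0.0258).

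In humanized mice 8 of 9 members were called over the dosing days. The same 5 genes rose as in wild type, Ugdh, Ugt2b34, Ugt2b35, Ugt2b36 and Ugt2b1, against 14.9% of all tested genes called higher. Ugt2b38, Ugt3a1 and Ugt3a2 fell, 3 of 9 against 17.5% called lower. The median difference of the members was 0.08, against 0 for all tested genes. Ugt2a3, a further Ugt2 enzyme of liver and intestine, had a difference of 0.00 (95% interval -0.05 to 0.05). In wild type it had -0.05 (95% interval -0.10 to 0.00, adjusted p = 0.16), with 22 controls from 12.06 to 12.39 and 24 treated livers from 12.01 to 12.34, which overlapped almost wholly.

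In mice without CAR and PXR no member was called higher over the mean of the dosing days. By limma 0 of 9 members were called higher, against 8.64% of all tested genes, and 0 were higher at an unadjusted p under 0.05. Ugt2b1 was called lower, 1 of 9 against 11.0%, and 3 were lower at an unadjusted p under 0.05. With 9 members, both counts of calls are near these shares, so they do not set the members apart from all tested genes. The split of calls over all genes in the knockout depended on scaling, with 1090 higher and 1383 lower as deposited and 1372 higher and 1126 lower after quantile normalization. Ugt2b34 had a knockout mean of 12.75 ± 0.09 (SD, n = 22) in controls and 12.76 ± 0.09 (SD, n = 24) with the drug, a difference of 0.01 (95% interval -0.05 to 0.06). The differences were 0.04 (-0.03 to 0.10) for Ugt2b35, 0.05 (-0.03 to 0.12) for Ugdh and -0.02 (-0.04 to 0.01) for Ugt2b36, with 95% intervals in parentheses. Ugt2b1 fell by 0.09 on the log2 scale (SE 0.0258, adjusted p = 0.00422). Ugt2a3 had -0.06 (adjusted p = 0.068) and passed the threshold when animal 3017, 4004, 4005 or 4009 was left out, with adjusted p from 0.0271 to 0.0486.

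Tests of the difference between genotypes bear on the same genes. The phenobarbital difference was smaller in the knockout than in wild type for Ugt2b34 by 0.65, for Ugt2b35 by 0.55, for Ugdh by 0.41, for Ugt2b1 by 0.23 and for Ugt2b36 by 0.19, with adjusted p from 1.18e-30 to 4.09e-07. That is 5 of 9 members called lower, against 5.77% of all tested genes, and 0 called higher, against 7.67%, with 1 higher at an unadjusted p under 0.05 in limma. That one was Ugt3a1, at 0.13 (adjusted p = 0.186), which passed without the 26 samples high in acinar markers (0.19, adjusted p = 0.0478). Humanized minus knockout gave 0.55 for Ugdh, 0.49 for Ugt2b34, 0.48 for Ugt2b35, 0.22 for Ugt2b1 and 0.10 for Ugt2b36, 5 of 9 against 5.66% called higher. It gave -0.22 for Ugt3a1 (adjusted p = 0.0167), 1 of 9 against 4.49% called lower, and the other Ugt3a1 probe set gave -0.20 (adjusted p = 0.0775). Ugt3a2 had -0.13 (adjusted p = 0.0729) and passed without the samples high in acinar markers (-0.15, adjusted p = 0.0339). Each genotype had its own controls. The 3 comparisons share groups with each other, so they are not independent.

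The effect of phenobarbital differed between humanized and wild-type mice for 2 members. Humanized minus wild type was -0.15 for Ugt2b34 (SE 0.0393, adjusted p = 0.0141) and -0.09 for Ugt2b36 (SE 0.0202, adjusted p = 0.00213), 2 of 9 against 0.776% of all tested genes called lower, and 0 were called higher, against 1.10%, with 1 higher at an unadjusted p under 0.05 in limma. The other probe set of Ugt2b34 gave -0.25. Without the 26 samples high in acinar markers, neither was called, with -0.11 for Ugt2b34 (adjusted p = 0.277) and -0.06 for Ugt2b36 (adjusted p = 0.193). Ugdh had the opposite sign, 0.15 (95% interval 0.04 to 0.25, adjusted p = 0.137). Ugt2b35 had -0.07 (95% interval -0.16 to 0.02), and Ugt2b1 had 0.00 (95% interval -0.08 to 0.07). For Ugt2b34 the treated mean was 13.39 ± 0.10 (SD, n = 23) in humanized mice and 13.33 ± 0.12 (SD, n = 24) in wild type, and the control means were 12.89 ± 0.09 (SD, n = 24) and 12.68 ± 0.09 (SD, n = 22). The treated levels thus lay closer together than the control levels.

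**Figure D2:**
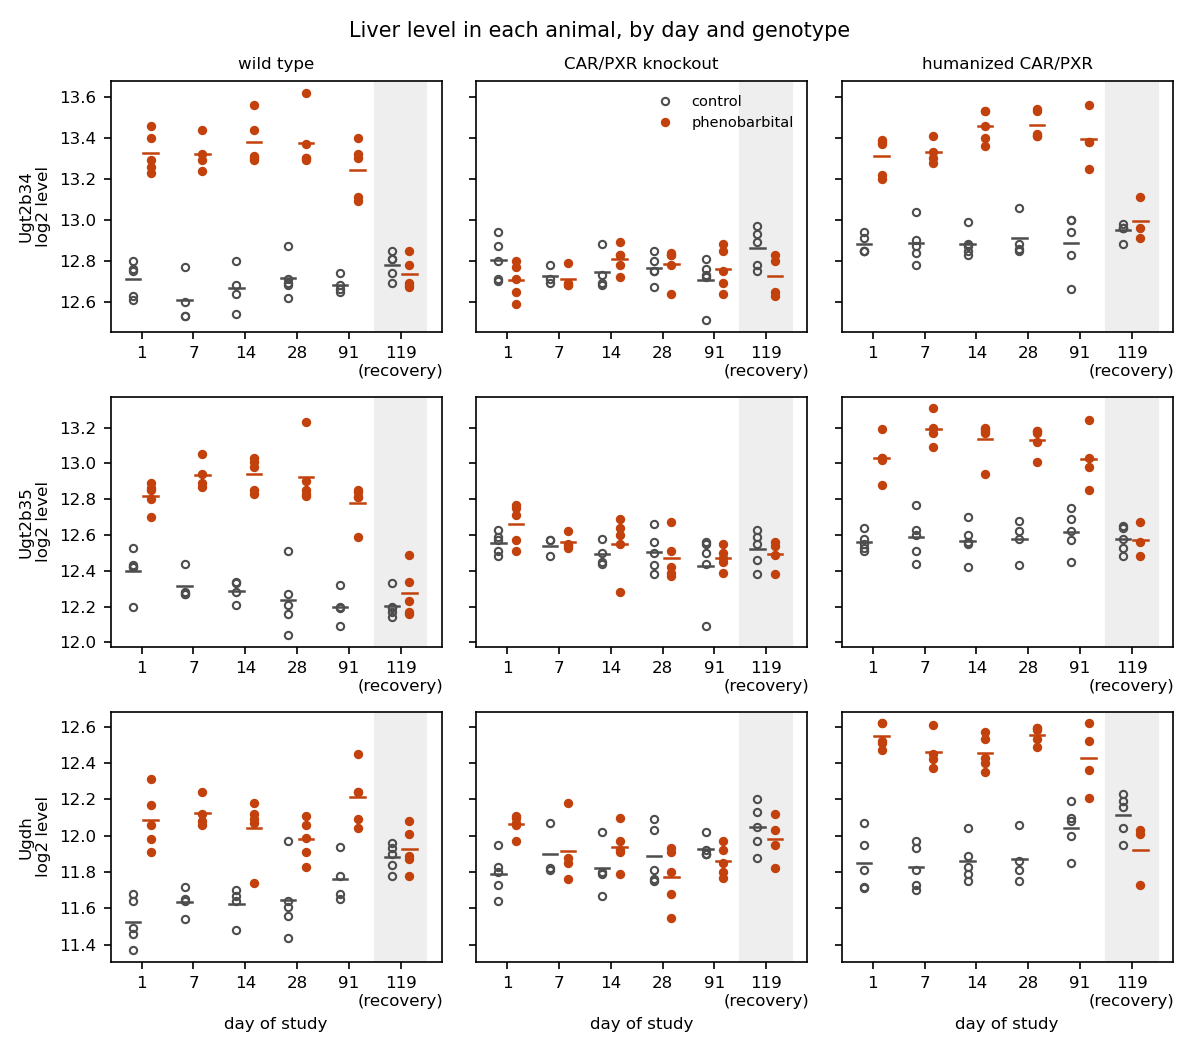
Log2 level (y axis) of Ugt2b34, Ugt2b35 and Ugdh in every liver by day of study (x axis), with open points for controls, filled points for phenobarbital, short lines for group means, and shading for the recovery day. On the 5 dosing days the treated wild-type livers for Ugt2b34 lie at 13.09 to 13.62 above controls at 12.53 to 12.87, treated and control knockout livers overlap except for Ugdh on day 1, and at day 119 treated and control livers of each genotype overlap for all 3 genes.

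Single days showed the rise of Ugdh, Ugt2b34, Ugt2b35 and Ugt2b36 at every wild-type dosing time. On each of days 1, 7, 14, 28 and 91, 4 of 9 members were called, all higher, against 12.0%, 2.72%, 8.79%, 5.55% and 2.13% of all tested genes called in either direction. Ugt2b34 differences were 0.62, 0.71, 0.72, 0.66 and 0.56 on these days, with adjusted p from 2.73e-18 to 2.86e-12. Ugt2b35 gave 0.42, 0.62, 0.65, 0.68 and 0.58, and Ugdh 0.56, 0.49, 0.42, 0.34 and 0.45. Ugt2b36 gave 0.11, 0.23, 0.22, 0.18 and 0.14. The 5 Ugt2b36 calls were lost in fits on only the 2 groups compared, with adjusted p from 0.0645 to 0.252, as was that of Ugdh on day 28 (adjusted p = 0.0756). Without the 26 samples high in acinar markers, Ugt2b36 was not called on days 1 (0.08, adjusted p = 0.46) and 14 (0.14, adjusted p = 0.0547). The wild-type controls of both days then held only 2 livers, and the part of lost precision was not tested.

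In humanized mice the same days gave 4, 3, 4, 4 and 4 members called, against 11.7%, 4.84%, 11.9%, 7.70% and 2.19% of all tested genes. Ugdh, Ugt2b34 and Ugt2b35 were called higher on all 5 days. Ugdh differences were 0.70, 0.63, 0.60, 0.69 and 0.38, those of Ugt2b34 0.43, 0.44, 0.57, 0.55 and 0.50, and those of Ugt2b35 0.47, 0.60, 0.57, 0.55 and 0.41. On day 91 Ugdh read 12.52, 12.21, 12.36 and 12.62 in treated livers and 11.85, 12.10, 12.19, 12.08 and 12.00 in controls. That day-91 call for Ugdh was lost without animal 6025 (0.32, adjusted p = 0.0502) and in a fit on only the 2 groups (adjusted p = 0.131), and that of Ugt2b35 in the latter fit (adjusted p = 0.0749). The other 4 calls were small, and each was lost when any of several livers was left out and in a fit on only the 2 groups. Ugt2b1 on day 14 (0.17, adjusted p = 0.023) was lost without animal 5011, 5012 or 6014 (adjusted p from 0.0735 to 0.106) and had 0.148 in the fit on 2 groups. Ugt2b36 on day 28 (0.10, adjusted p = 0.0277) was lost without 5016, 5018 or 6019 (0.0728 to 0.0937), had 0.332 in the fit on 2 groups, and was 0.04 after quantile normalization. Ugt2b36 on day 91 (0.12, adjusted p = 0.0294) was lost without 5021, 5022, 5023, 6021, 6022 or 6025 (0.0651 to 0.116) and had 0.572 in the fit on 2 groups. Ugt3a2 on day 1 (-0.22, adjusted p = 0.0323) was lost without 5002, 5005, 6001, 6002 or 6003 (0.0639 to 0.221) and had 0.197 in the fit on 2 groups. Animal 6003 is the liver with the acinar marker mean of 12.58, and without the 26 samples high in these markers Ugt3a2 had -0.15 on day 1 (adjusted p = 0.209), which leaves 18 of the 19 humanized single-day calls.

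**Figure D3:**
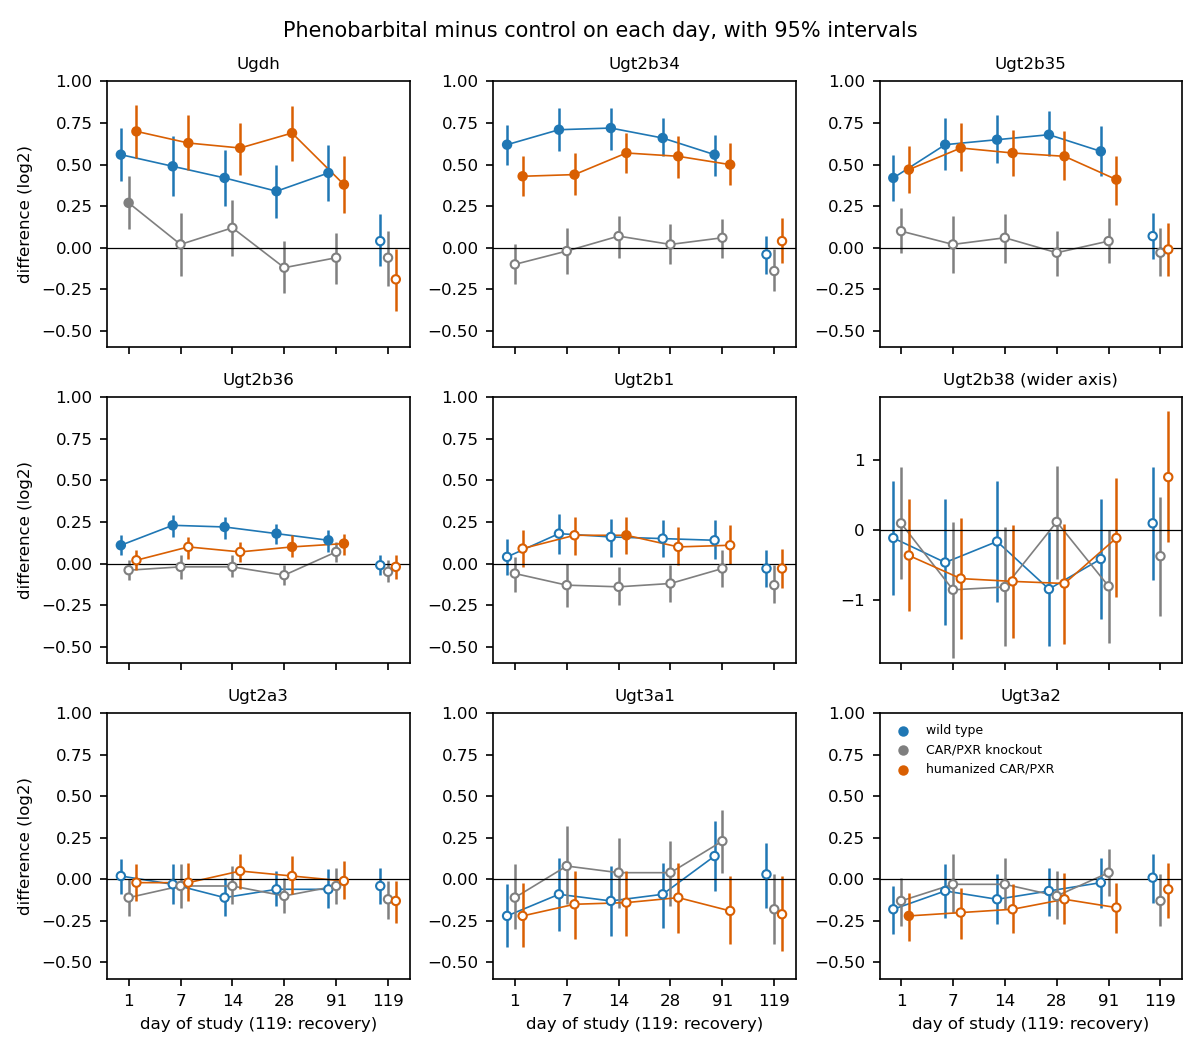
Phenobarbital minus control in log2 units (y axis) on each day of study (x axis) for the 9 genes, by genotype, with 95% intervals and filled points where the adjusted p was under 0.05. Wild-type Ugt2b34 runs from 0.56 to 0.72 over the dosing days and is at -0.04 on day 119, and the only filled knockout point is Ugdh on day 1 at 0.27.

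The knockout gave 1 call on a single day, and its counts on single days were near the shares of all tested genes. Ugdh was higher on day 1, 1 of 9 members against 8.08% of all tested genes called, with controls at 11.64, 11.83, 11.73, 11.80 and 11.95 and treated livers at 12.11, 11.97, 12.07, 12.10 and 12.06. All 5 treated livers were above all 5 controls, by 0.27 on average (SE 0.08, fold 1.21, adjusted p = 0.0197). The call was lost without animal 3001 (0.23, adjusted p = 0.104) or 4001 (0.26, adjusted p = 0.0522) and in a fit on only the 2 groups (adjusted p = 0.0626). On days 7, 14, 28 and 91, 0 members were called, against 0.0158%, 0.325%, 5.16% and 3.45% of all tested genes, although 0, 1, 2 and 2 had an unadjusted p under 0.05 in limma. Ugdh differences were 0.02, 0.12, -0.12 and -0.06 on these days. Ugdh on day 91 minus day 1 was -0.34 in the knockout (95% interval -0.56 to -0.11, adjusted p = 0.145). Over day 91 minus day 1, 0 of 9 members were called in wild type, knockout or humanized mice, against 0.436%, 0.666% and 1.74% of all tested genes, and 1, 3 and 2 had an unadjusted p under 0.05 in limma. Among them were Ugt3a1 at 0.36 in wild type (adjusted p = 0.329) and Ugdh at -0.31 in humanized mice (adjusted p = 0.152).

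After 4 weeks without the drug, no member differed by the test in any genotype. On day 119, 0 of 9 members were called in wild type, knockout and humanized mice, against 0.0238%, 0.111% and 0.214% of all tested genes, and 0, 3 and 2 had an unadjusted p under 0.05 in limma. With 9 members, counts of 0 are near these shares. In wild type, Ugt2b34 read 12.69, 12.81, 12.74, 12.85 and 12.81 in controls and 12.68, 12.67, 12.78, 12.85 and 12.69 in the previously treated livers. The difference was -0.04 (95% interval -0.16 to 0.07), against 0.56 (0.43 to 0.68) on day 91. Ugt2b35 had 0.07 (-0.07 to 0.21) and Ugdh 0.04 (-0.11 to 0.20). In humanized mice Ugt2b34 read 12.96, 12.96, 12.98, 12.96 and 12.88 in controls and 12.91, 12.96 and 13.11 in treated livers, a difference of 0.04 (-0.09 to 0.18). Ugdh there had a negative difference, -0.19 (-0.38 to -0.01, adjusted p = 0.463), from controls at 12.04, 12.16, 11.95, 12.23 and 12.19 and treated livers at 12.03, 11.73 and 12.01. The value of 12.03 is the average of the near-identical arrays of 6026 and 6030.

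Control livers of the 3 genotypes, sampled over the same days as treated ones, differed in these genes. Over controls of all 6 days, humanized minus wild type was called for 6 members. Ugt2b35 was higher by 0.31 (SE 0.0296, adjusted p = 2.15e-16), Ugdh by 0.25 (SE 0.034, adjusted p = 1.58e-09), Ugt2b34 by 0.21 (SE 0.0253, adjusted p = 3.03e-11), Ugt3a1 by 0.15 (SE 0.0419, adjusted p = 0.00424) and Ugt2a3 by 0.08 (SE 0.0233, adjusted p = 0.00432), 5 of 9 against 11.6% of all tested genes. Ugt2b38 had -0.65 (SE 0.174, adjusted p = 0.0021), 1 of 9 called lower against 16.5%. The Ugt3a1 and Ugt2a3 calls were lost without the 26 samples high in acinar markers (0.10, adjusted p = 0.0744, and 0.06, adjusted p = 0.0812), and the other Ugt3a1 probe set gave 0.07. For Ugt2b35 the 27 wild-type controls ran from 12.04 to 12.53 (median 12.27) and the 29 humanized controls from 12.42 to 12.77 (median 12.58), and these ranges share only 12.42 to 12.53.

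Knockout controls were also above wild type for Ugt2b35 and Ugdh. Knockout minus wild type was 0.23 for Ugt2b35 (SE 0.0304, adjusted p = 3.56e-10) and 0.22 for Ugdh (SE 0.0349, adjusted p = 3.29e-07). Ugt2b34 had 0.07 (adjusted p = 0.0274) and Ugt2b1 0.06 (adjusted p = 0.0393), which makes 4 of 9 higher against 11.5% of all tested genes. Ugt2b38 had -0.98 (SE 0.178, fold 0.505, adjusted p = 5.43e-06), 1 of 9 called lower against 10.9%. The Ugt2b34 call was lost without animal 3014, 3009 or 1012 (adjusted p from 0.0525 to 0.0538), and the Ugt2b1 call in 16 of 54 omissions of 1 animal (adjusted p up to 0.0893). Both were lost without the samples high in acinar markers (0.04, adjusted p = 0.375, for Ugt2b34 and 0.05, adjusted p = 0.201, for Ugt2b1), and Ugt3a2 was then called at -0.10 (adjusted p = 0.0423). Over all tested genes the calls split 1454 higher and 1375 lower as deposited and 1252 and 1785 after quantile normalization.

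Humanized minus knockout controls gave 3 calls, Ugt3a1 at 0.16 (adjusted p = 0.00444), Ugt2b34 at 0.13 (SE 0.0255, adjusted p = 6.57e-05) and Ugt2b1 at -0.06 (adjusted p = 0.0436). That is 2 of 9 against 6.82% of all tested genes called higher and 1 of 9 against 9.82% called lower. Over all genes the calls split 861 higher and 1240 lower as deposited and 1293 and 727 after quantile normalization. The Ugt2b1 call was lost in 27 of 56 omissions of 1 animal (adjusted p up to 0.0929). The other Ugt3a1 probe set gave 0.06 and was not called. Ugdh had 0.03 (95% interval -0.03 to 0.10) and Ugt2b35 0.07 (0.02 to 0.13, adjusted p = 0.0693). Ugt2b34 was the only member above both other genotypes by the test in humanized controls whose calls held in every omission of 1 animal and in both probe sets.

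**Figure D4:**
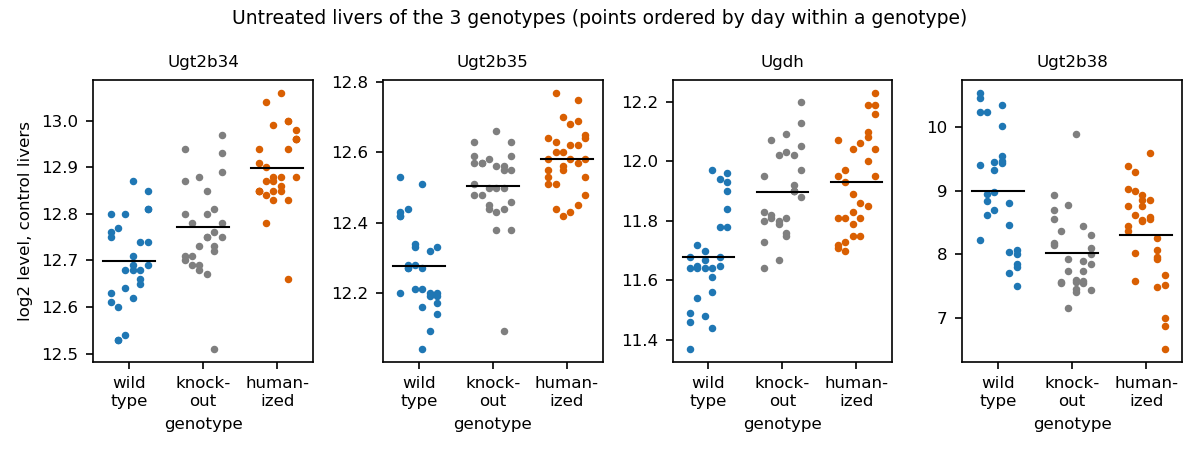
Log2 level (y axis) of Ugt2b34, Ugt2b35, Ugdh and Ugt2b38 in every control liver by genotype (x axis), with points ordered by day within a genotype and a line at the mean over livers. Wild-type controls have the lowest means for Ugt2b34 (12.70), Ugt2b35 (12.28) and Ugdh (11.68) and the highest mean for Ugt2b38 (9.00).

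Ugt2b38 was the member with the largest spread between livers. In wild-type controls its group means were 9.77 ± 0.98 (SD, n = 5) on day 1, 9.76 ± 0.40 (SD, n = 5) on day 28, 8.25 ± 0.48 (SD, n = 4) on day 91 and 7.84 ± 0.22 (SD, n = 5) on day 119. The day-1 animals read 9.40, 10.24, 8.22, 10.46 and 10.54, and the day-119 animals 8.01, 7.80, 8.07, 7.84 and 7.50. Humanized controls also ran lower at the late days, with 8.80 ± 0.42 (SD, n = 5) on day 1 and 7.11 ± 0.48 (SD, n = 5) on day 119, whereas knockout controls had 8.50 ± 0.34 (SD, n = 5) and 7.94 ± 0.32 (SD, n = 5). Change over time in the controls was not tested.

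Phenobarbital gave negative mean differences for Ugt2b38 in all 3 genotypes. They were -0.40 in wild type (95% interval -0.77 to -0.02, adjusted p = 0.105), -0.45 in the knockout (-0.83 to -0.07, adjusted p = 0.0886) and -0.53 in humanized mice (-0.90 to -0.15, adjusted p = 0.0223). The humanized call was lost without animal 6007 (-0.46, adjusted p = 0.0542), and wild type passed without animal 1003, 2012 or 2024 (-0.47 to -0.50, adjusted p from 0.0294 to 0.0464). Differences between genotypes were -0.13 for humanized minus wild type (-0.67 to 0.40) and -0.05 for knockout minus wild type (-0.59 to 0.49), intervals that span more than the phenobarbital differences themselves. On day 28 the treated humanized livers, at 7.67 to 8.55, were all below the controls, at 8.56 to 9.59, although the day was not called (-0.76, adjusted p = 0.312). On day 14 the humanized difference of -0.73 (adjusted p = 0.262) passed in a fit on only the 2 groups (adjusted p = 0.0189).

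**Figure D5:**
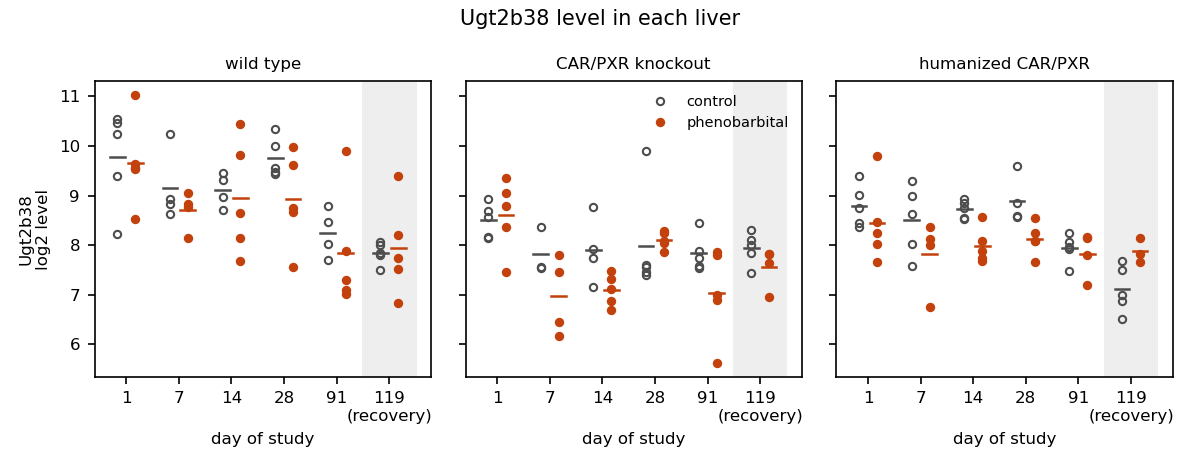
Log2 level (y axis) of Ugt2b38 in every liver by day of study (x axis), with open points for controls, filled points for phenobarbital and short lines for group means. Treated wild-type livers of day 91 spread from 7.02 to 9.90, and wild-type control means run from 9.77 on day 1 to 7.84 on day 119.

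Both Ugt3a genes fell in humanized mice. Ugt3a2 fell by 0.18 on the log2 scale in humanized mice (SE 0.034, adjusted p = 8.72e-06), from 12.17 ± 0.09 (SD, n = 24) to 11.98 ± 0.14 (SD, n = 23), and its level in the 23 treated livers ran from 11.62 to 12.23. In wild type it fell by 0.09 (SE 0.0344, adjusted p = 0.0279), and that call was lost without animal 1014, 1010, 1025 or 2007 (adjusted p from 0.0618 to 0.0717). In the knockout the difference was -0.05 (95% interval -0.12 to 0.02). Ugt3a1 fell by 0.16 in humanized mice (SE 0.0457, adjusted p = 0.00297), from 10.42 ± 0.12 (SD, n = 24) to 10.25 ± 0.18 (SD, n = 23). It had -0.08 in wild type (adjusted p = 0.2), where its other probe set gave -0.15 (adjusted p = 0.0186), and 0.06 in the knockout (95% interval -0.04 to 0.15).

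Genes that supply and use UDP-sugars rose in part. Of 9 tested genes of this list, 5 rose in wild type, 1 in the knockout and 5 in humanized mice, against 11.8%, 8.64% and 14.9% of all tested genes called higher. In humanized mice 1 fell, against 17.5% called lower. The gene that fell was Ugp2, the enzyme that makes UDP-glucose (-0.08, adjusted p = 0.0462), named after its value was seen. Pgm1, Pgm2 and Gys2, also on the list, were called in no genotype and were likewise named after their values were seen. Entpd5, which splits UDP in the endoplasmic reticulum, rose by 0.50 in wild type (SE 0.0396), 0.11 in the knockout (SE 0.0399) and 0.57 in humanized mice (SE 0.0391). Gbe1, the glycogen branching enzyme, rose by 0.30 in wild type and by 0.27 in humanized mice. Uxs1, which turns UDP-glucuronic acid into UDP-xylose, rose by 0.20 and by 0.18. Slc35b1 rose by 0.25 in wild type and 0.13 in humanized mice. Slc35d1, a UDP-sugar transporter, rose by 0.17 and by 0.18. The list's median difference was 0.17 in wild type, 0.01 in the knockout and 0.13 in humanized mice, against -0.01, 0.01 and 0 for all tested genes.

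Of 4 tested exporters of glucuronides, 3 rose in wild type, 2 in the knockout and 3 in humanized mice, against 11.8%, 8.64% and 14.9% of all tested genes called higher, and 0 were called lower. The list's median differences were 0.61, 0.06 and 0.35. Abcc4 rose by 1.81 (SE 0.0809), 0.24 (SE 0.0815) and 2.95 (SE 0.08), and Abcc3, which carries glucuronides into blood, by 0.82, 0.18 and 0.51. Abcc2, which carries them into bile, rose by 0.40 in wild type and 0.19 in humanized mice. The glucuronate, ascorbate and deconjugation list had 7 tested genes and no common direction, with 1 higher and 1 lower in wild type, 2 and 1 in the knockout, and 2 and 3 in humanized mice. Of all tested genes, 11.8% and 19.7% were called higher and lower in wild type, 8.64% and 11.0% in the knockout, and 14.9% and 17.5% in humanized mice, so the wild-type counts are near the background. The list's median differences were -0.03, -0.01 and -0.09. In humanized mice Gulo, the last enzyme of ascorbate synthesis, fell by 0.26 (SE 0.0375), and Gusb, the glucuronidase that splits glucuronides, rose by 0.13 there and fell by 0.13 in the knockout.

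Of 14 other UDP-glucuronosyltransferases listed, 3 had a probe set of their own and 2 were tested. Ugt2b5, which lies next to Ugt2b36, rose by 0.06 in wild type (adjusted p = 7.44e-05) and by 0.07 in humanized mice (adjusted p = 3.2e-06). Of the 5 readouts of CAR and PXR, 3 rose in wild type (11.8% of all tested genes were called higher), 1 in the knockout (8.64%) and 3 in humanized mice (14.9%). Nr1i3, the gene of CAR itself, fell by 0.20 in wild type (SE 0.0525, adjusted p = 0.00136), the only one of the 5 called lower in any genotype. Nr1i3 and Nr1i2 are on this list as the targeted genes. Outside wild type they reached only 5.46 and 4.19, so a change of them could hardly be read there. Cyp2b10, the classic CAR target, rose by 6.50 in wild type (SE 0.0891) and 4.71 in humanized mice (SE 0.088) and had 0.17 in the knockout (adjusted p = 0.164). Cyp3a11, the usual PXR readout, rose by 0.12, 0.05 and 0.14. The differences of the 9 members over the dosing days ran up to 0.65.

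Across the 36 group means, Ugt2b34, Ugt2b35 and Ugdh had similar patterns, and Ugt2b1 was less like the other members that rose. The Pearson r was 0.917 for Ugt2b34 with Ugt2b35, 0.862 for Ugt2b35 with Ugdh, 0.836 for Ugt2b34 with Ugt2b36 and 0.808 for Ugt2b34 with Ugdh. It was 0.719 for Ugt2b36 with Ugt2b35 and 0.591 for Ugt2b36 with Ugdh. For Ugt2b1 it was 0.664 with Ugt2b35, 0.58 with Ugt2b34, 0.499 with Ugt2b36 and 0.323 with Ugdh. Ugt3a1 and Ugt3a2 had 0.735. These means share arrays and the treatment itself, so r describes the pattern over groups and has no test here. By the same measure the genes most like Ugt2b34 were Gadd45b (0.971), Ces2a (0.966) and Cyp2b10 (0.96). Those most like Ugt2b35 were Gstm3 (0.954), Ces2a (0.947) and 4931406C07Rik (0.931), and those most like Ugdh were Entpd5 (0.943), Abhd4 (0.917) and Mdh2 (0.912). For Ugt2b36 they were Sult1d1 (0.911), Slc23a2 (0.897) and Cyp2c65 (0.857), and for Ugt2b1 Acsm2 (0.869), Hsd17b2 (0.85) and Cd276 (0.849). Ugt2b38 was most like Gstp1 (0.905), 1110038B12Rik (0.822) and C6 (0.807), and had r of 0.0782 with Ugt2b34. Ugt3a1 was most like Pttg1ip (0.855), Acadm (0.838) and Gphn (0.809), and Ugt3a2 most like Sdha (0.882), Dhrs4 (0.868) and Chmp1b (0.859).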

How the data were processed

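Liver RNA was measured on Affymetrix arrays. The deposited values are log2 expression levels that the authors made with RMA, per the submitters' processing notes (RMA's version is not given in the sources used here), for 45101 probe sets on the arrays of all samples. Gene names came from the platform's annotation, where 34958 probe sets carried a single gene symbol, 932 more than 1 and 9211 no symbol. Control probe sets were left out. Genes were tested where at least 3 arrays exceeded their own array median. RMA tends to compress differences of dim genes, the array medians as deposited were not equal, and levels of different probe sets are not compared.

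The 36 group means were fitted with limma 3.58.1 in R 4.3.3 (lmFit, eBayes, 130 residual degrees of freedom), two-sided, with Benjamini-Hochberg adjustment over 12622 genes within each of 30 contrasts. Intervals are 95% and unadjusted. The same code was tested on simulated data. The number of animals per group, 3 to 5, limits the precision. Arrays of animals 6026 and 6030 were averaged, which leaves 166 samples. The members and the lists of other genes were chosen with earlier results of these data known. Named genes are all members, at most 4 called genes per list and genotype, and the 3 most alike by Pearson r for each called member. Alternatives were a stricter filter and none, a trended robust prior, quantile normalization, the probe set chosen, testing every probe set, the groups in the fit, the near-identical arrays and each animal left out. Leaving out samples high in acinar markers was chosen after seeing the data.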

Additional observations from a re-analysis of the deposited data

Results flagged for a closer look

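Of 306 combinations of a member gene and a group of 4 or 5 livers, 21 held a liver far from the others by Dixon's test, and chance flags about 1 in 20 such groups. In the knockout, Ugt2b38 read 9.89 in the day-28 control 3016, where the next liver read 7.60. The day-91 control 3025 was lowest for Ugt2b35 at 12.09 and highest for Ugdh at 12.02. Treated knockout livers stood apart for Ugt2b34 (animal 4009, 12.79), Ugt2b36 (4024, 13.47), Ugt2a3 (4007, 12.04) and Ugt3a1 (4030, 10.64, and 4022, 10.47).

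In wild type the treated day-28 liver 2019 was highest for both Ugt2b34 (13.62) and Ugt2b35 (13.23). Other treated wild-type livers were 2023 for Ugt2b35 (12.59), 2012 for Ugdh (11.74), 2005 for Ugt3a2 (12.24) and 2029 for Ugt2b1 (13.14). Wild-type controls were 1008 for Ugt2b35 (12.44), 1010 for Ugt3a2 (12.29) and 1026 for Ugt2a3 (12.36). In humanized mice they were the controls 5019 and 5030 for Ugt2b34 (13.06 and 12.88) and the treated livers 6013 for Ugt2b35 (12.94) and 6019 for Ugt2b36 (13.66).

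The effect of phenobarbital differed between genotypes for 6 member genes by the interaction test. Knockout minus wild type was -0.65 for Ugt2b34, -0.55 for Ugt2b35, -0.41 for Ugdh, -0.23 for Ugt2b1 and -0.19 for Ugt2b36. Humanized minus knockout was 0.55 for Ugdh, 0.49 for Ugt2b34, 0.48 for Ugt2b35, 0.22 for Ugt2b1, 0.10 for Ugt2b36 and -0.22 for Ugt3a1. The other Ugt3a1 probe set was not called for humanized minus knockout. Humanized minus wild type was -0.15 for Ugt2b34 and -0.09 for Ugt2b36, and neither was called without the 26 samples high in acinar markers. Of all tested genes, 13.4% were called in either direction for knockout minus wild type. The shares were 10.1% for humanized minus knockout and 1.88% for humanized minus wild type.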

How the results depend on the processing

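The member genes' differences were recomputed under 11 alternatives and with each of 166 animals left out. Of 9813 values, 9674 stayed on the same side of the threshold, 103 lost a call and 36 gained one. With a call before or after, 0 reversed direction. A change of sign without a call on either side was not counted as a reversal. Leaving out 1 animal gave 5 to 7 called members in wild type over the dosing days (6 with all animals), 1 to 2 in the knockout (1) and 7 to 8 in humanized mice (8). For single dosing days the range was 20 to 21 in wild type (20), 0 to 1 in the knockout and 17 to 20 in humanized mice (19), and for knockout minus wild-type controls it was 3 to 5 (5). The single knockout call of Ugdh on day 1 became 0 in a fit on only the groups compared, which has fewer samples. Such fits also lowered the single-day counts to 14 in wild type and 14 in humanized mice. Humanized minus wild type fell from 2 called members to 0 without the 26 samples high in acinar markers, an alternative chosen after seeing the data, and the cause was not tested. On day 119 and for day 91 minus day 1 the counts were 0 in each of these settings. No paired analysis was possible because animal numbers are not shared between groups. Leaving out animals 4019 and 4024 changed no call.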
